A study of Homo sapiens with 36 samples.

Results

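The aryl hydrocarbon receptor response was described here through 6 genes, namely AHR, ARNT, AHRR, CYP1A1, CYP1B1 and TIPARP, taken by symbol from the 18932 genes of the count table. All 6 had a row. The samples were HepG2 cells, an established human hepatoma line, kept in serum-free medium with bovine serum albumin and vehicle. The 6 treatments were vehicle control (Ctrl), protocatechuic acid (PCA), the n-3 fatty acid DHA (bound to albumin), propionate (PRO), DHA + PCA and DHA + PRO. Each was given for 6 h or 24 h to 3 independent cultures, which makes 12 groups of 3 and 36 samples in all, and the RNA of 3 wells was pooled in each. By the authors' methods, PCA was given at 20 µM, DHA at 50 µM and PRO at 70 µM. PCA was dissolved in acidified DMSO, DHA in ethanol and PRO in water. The vehicle group received albumin, ethanol and DMSO and is labelled DMSO/BSA at both times. The 36 samples hold no time before 6 h.

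AHR is a ligand-activated transcription factor of the bHLH-PAS family that rests in the cytoplasm with HSP90, p23 (PTGES3) and further chaperones. Ligands such as dioxins, polycyclic aromatic hydrocarbons and some plant phenolics and tryptophan products let it move to the nucleus, where it pairs with ARNT and binds xenobiotic response elements. CYP1A1 and CYP1B1, monooxygenases that oxidise such ligands, are its best known targets, while AHRR and TIPARP are targets that restrain the receptor. PCA is a phenolic acid formed by gut bacteria from anthocyanins, and the comparison of PCA with its controls therefore comes first.

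The core of the xenobiotic response element is GCGTG, and a longer form is TNGCGTG. Both forms were searched on both strands in the 2000 bases upstream of the start of each gene, on the genome GRCh37 (hg19) that the counts use. CYP1A1 lies on chromosome 15 (75011883 to 75017877, minus strand) and held 11 core matches, 5 of them of the long form, at 489 to 1371 bases upstream. A core match was found upstream of 83.6% of the 18932 genes, but as many as in CYP1A1 in only 0.618% of them. The long form was found upstream of 31.7% of the genes, and 0.0317% had as many as CYP1A1. CYP1B1 (chromosome 2) held 8 core matches and 4 long ones, ARNT (chromosome 1) held 6 and 2, and TIPARP (chromosome 3) held 6 and 1. In AHR (chromosome 7) and AHRR (chromosome 5) these letters did not occur in the window searched. Each window follows the start given in the count table, 17338276 for AHR and 304291 for AHRR. In the GENCODE annotation these genes start at 16955983 and 321829, so the absence holds for these windows only. The 300 bases with the most core matches are shown for CYP1A1, because it gave the clearest change among the members, and 37 bases around the nearest long match for the other 3 genes that had one. Capitals mark the core on either strand (GCGTG, or CACGC when it lies on the other strand). These letters describe the sequence and were not measured as bound sites.
CYP1A1, chr15:75018830-75019129, minus strand: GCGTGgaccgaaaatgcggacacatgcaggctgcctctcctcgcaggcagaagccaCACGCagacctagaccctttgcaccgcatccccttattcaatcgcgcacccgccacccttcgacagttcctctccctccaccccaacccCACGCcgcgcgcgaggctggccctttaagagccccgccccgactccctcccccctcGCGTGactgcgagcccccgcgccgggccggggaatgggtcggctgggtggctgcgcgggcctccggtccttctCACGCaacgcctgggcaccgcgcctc
CYP1B1, chr2:38304109-38304145, minus strand: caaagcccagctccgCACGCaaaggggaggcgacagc
ARNT, chr1:150849687-150849723, minus strand: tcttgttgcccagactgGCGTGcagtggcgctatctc
TIPARP, chr3:156390834-156390870, plus strand: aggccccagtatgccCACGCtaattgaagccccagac

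Total counts ran from 4659744 to 42326734 per sample, and replicate 2 of DHA + PRO at 24 h was the deepest, with all others at or below 10788964. All 5 hepatocyte markers (ALB, AFP, APOA1, TTR and SERPINA1) were expressed in every sample. Their summed RPKM (reads scaled to gene length and library size) lay between 18321 and 23949 at 6 h and between 21316 and 26449 at 24 h. The 3 fibroblast markers summed to at most 2.90 RPKM and the 3 endothelial markers to at most 0.268. Of the 3 leukocyte markers, PTPRC was at or near 0 (at most 0.0339), while LYZ and CD74 were expressed, and their sum rose from between 563 and 903 at 6 h to between 1182 and 1825 at 24 h. In bulk samples of this kind, fewer cells expressing a gene and less of its RNA per cell cannot be told apart.

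Per length, 4 of the 6 members were clearly expressed at 6 h and 3 at 24 h. At 6 h, CYP1A1 led with 17.4 ± 5.70 RPKM (SD, n = 18), followed by ARNT (10.3 ± 0.783), AHR (7.75 ± 1.41) and TIPARP (5.22 ± 0.567). These neighbours overlapped from sample to sample. AHRR reached 0.284 ± 0.115 and CYP1B1 0.0268 ± 0.0388 RPKM, and their ranges at 6 h did not meet. At 24 h, ARNT led with 8.57 ± 0.547 RPKM, then AHR (7.10 ± 1.12) and TIPARP (6.07 ± 0.638), with overlapping neighbours. CYP1A1 had dropped to the fourth place with 1.01 ± 0.354 RPKM, below every sample of TIPARP and above every sample of AHRR (0.166 ± 0.0732). Among 12046 genes tested in a joint fit, 62.2% lay below the mean of CYP1A1 at 6 h and 7.92% at 24 h.

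**Figure D1:**
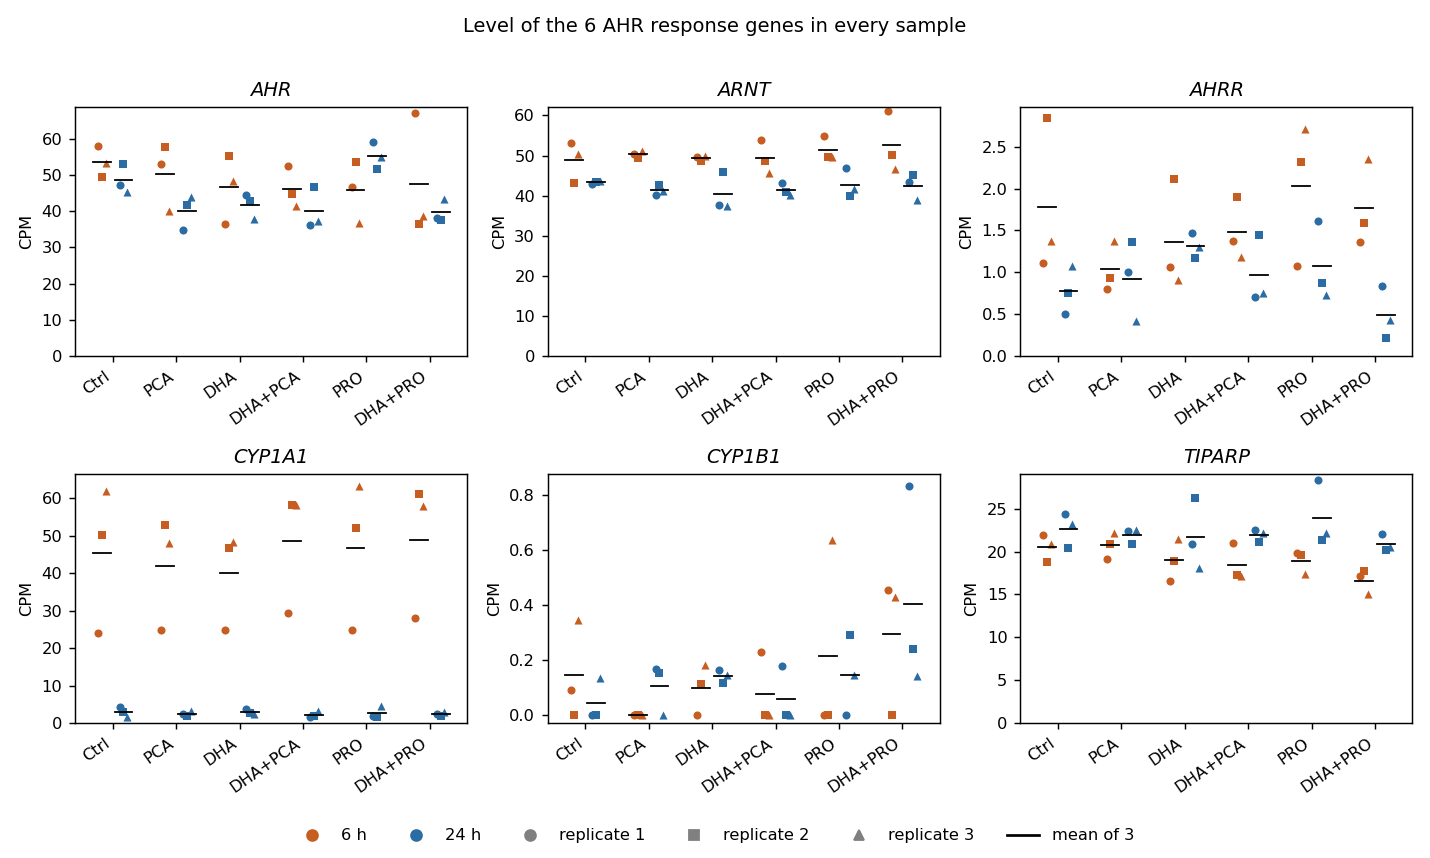
CPM (counts scaled to library size) of AHR, ARNT, AHRR, CYP1A1, CYP1B1 and TIPARP in each of the 36 samples, by treatment (x axis) and time (colour), with the replicate number as the symbol and a bar at the mean of 3. CYP1A1 lay between 24.1 and 63.4 CPM in all 6 treatments at 6 h and between 1.59 and 4.69 at 24 h. The ranges of AHR (36.5 to 67.4 CPM at 6 h, 34.9 to 59.3 at 24 h), ARNT and TIPARP overlapped between the times.

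None of the target genes of the receptor that could be tested passed the test under PCA at either time. Counts were compared by edgeR (quasi-likelihood F test), p-values were adjusted over all genes by the Benjamini-Hochberg method, and a gene was called at an adjusted p of at most 0.05 with an average log2 CPM above 0. With PCA against Ctrl at 6 h, 0 of the 5 members tested were called, as were 0% of all 11872 genes. DHA + PCA against DHA at 6 h also gave 0 of 5 members and 0% of genes. At 24 h, where AHRR and CYP1B1 were too low to be tested, 0 of 4 members and 0% of 11893 genes were called in each of these comparisons. By unadjusted p under 0.05, 86 and 151 genes passed at 6 h and 454 and 276 at 24 h, and AHR was the only member among them, in PCA against Ctrl at 24 h. The DESeq2 Wald test also called 0 genes in all 4. Each of the 4 counts by unadjusted p is below a share of 0.05 of the genes tested. That share would pass if no gene differed, so these counts do not by themselves show an effect of PCA. Counts below that share, most of all at 6 h, mean that the p-values ran larger than in that case. The 0 calls therefore do not show that PCA had no effect, and the cause of the low counts was not tested. The groups with DHA serve in several comparisons, and so does Ctrl, so these comparisons are not independent of each other.

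CYP1A1, the target most often used to read the activity of the receptor, had 24.9, 52.9 and 48.0 CPM in the 3 PCA samples at 6 h and 24.1, 50.3 and 62.1 in Ctrl. In the same order of replicates it had 29.5, 58.4 and 58.3 CPM with DHA + PCA and 24.9, 46.8 and 48.3 with DHA. Replicate 1 was the lowest in each of these groups and the groups overlapped. The log2 fold change with PCA was -0.10 (SE 0.393, 95% interval -0.92 to 0.72) against Ctrl and 0.29 (SE 0.395, interval -0.53 to 1.12) against DHA. All 3 DHA + PCA samples were above the DHA sample of the same number, and with the replicate number as a block this difference was 0.28 (SE 0.109, interval 0.06 to 0.51), still not called (adjusted p = 0.999 by edgeR). The mean of both was 0.09 (interval -0.49 to 0.68), and the interval spans both a lower and a higher level. With the block, this mean was 0.10 (SE 0.077, interval -0.06 to 0.26), and PCA against Ctrl was -0.09 (SE 0.108, interval -0.31 to 0.14). The effect of PCA with DHA minus that without was 0.40 (SE 0.557, interval -0.77 to 1.56), or 0.37 (SE 0.153, interval 0.05 to 0.69) with the block. None of these was called.

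At 24 h, CYP1A1 had 2.51, 1.81 and 3.30 CPM with PCA and 4.20, 2.85 and 1.62 in Ctrl. It had 1.59, 1.93 and 3.14 CPM with DHA + PCA and 3.76, 2.82 and 2.31 with DHA. These levels rest on 9 to 25 reads per sample, and all 4 groups overlapped. The log2 fold change was -0.14 (SE 0.422, interval -1.01 to 0.73) for PCA alone and -0.38 (SE 0.428, interval -1.27 to 0.50) on top of DHA, with a mean of -0.26 (interval -0.88 to 0.36). The effect of PCA on CYP1A1 did not differ detectably between the times, with a change of -0.35 (SE 0.508, interval -1.38 to 0.68) and 0% of genes called in this comparison.

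CYP1B1, the second monooxygenase, was close to absent in these cells. It had 0 to 4 reads per sample at 6 h, with 10 of 18 samples at 0, and 0 to 10 reads at 24 h, with 6 of 18 at 0. The 3 PCA samples at 6 h held 0 reads together, which allows up to 0.117 CPM (3 counts of their summed total), and the 3 Ctrl samples held 3 reads, or 0.110 CPM of theirs. No fold is therefore given. With PCA at 24 h, 2 reads were found in 3 samples, against 1 read in Ctrl. The highest sums of a group were 16 reads with DHA + PRO at 24 h, 10 of which came from the deepest library, and 6 with DHA + PRO at 6 h. At 24 h the 5, 10 and 1 reads with DHA + PRO lay, as CPM, above the 0, 0 and 1 reads of Ctrl. CYP1B1-AS1 overlaps CYP1B1 on the other strand.

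AHRR, the repressor that competes with AHR for ARNT, was low, with 5 to 31 reads per sample at 6 h and 3 to 14 at 24 h. At 6 h it had 0.798, 0.933 and 1.37 CPM with PCA and 1.11, 2.85 and 1.38 in Ctrl, which overlapped. The log2 fold change was -0.81 (SE 0.472, interval -1.79 to 0.18) and was not called. On top of DHA it was 0.10 (SE 0.476). With PCA at 24 h, 6, 9 and 3 reads were counted, against 3, 5 and 8 in Ctrl. The row of AHRR (chromosome 5, 304291 to 438405) overlaps PDCD6 and the PDCD6-AHRR readthrough on the same strand, and reads of these genes may be part of its count.

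TIPARP encodes a mono-ADP-ribosyltransferase that is induced by the receptor and limits it. It was the most even of the targets, with 19.2, 20.9 and 22.2 CPM with PCA and 21.9, 18.8 and 20.9 in Ctrl at 6 h. At 24 h it had 22.4, 20.9 and 22.5 CPM with PCA and 24.3, 20.4 and 23.2 in Ctrl. The groups overlapped at both times. Its log2 fold changes were 0.02 (SE 0.141, interval -0.28 to 0.31) and -0.04 (SE 0.146, interval -0.34 to 0.26), and on top of DHA they were -0.03 (SE 0.144) at 6 h and 0.00 (SE 0.147) at 24 h. An antisense gene, TIPARP-AS1, overlaps the start of TIPARP, and since the library kit does not mark strand, reads of the overlap cannot be told apart.

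Neither the receptor nor its partner passed the adjusted threshold with PCA at 24 h, although every PCA sample lay below every Ctrl sample for both. An exact test of 3 against 3 samples cannot give a p below 0.1. The share of all genes that separate in this way was not counted, so such a separation does not set a gene apart. The same limit holds for the other separations of 3 against 3 samples given here. AHR had 34.9, 41.7 and 44.0 CPM with PCA and 47.3, 53.2 and 45.4 in Ctrl. The log2 fold change was -0.27 (SE 0.121, interval -0.52 to -0.02, unadjusted p = 0.0374 and adjusted p = 0.991 by edgeR). On top of DHA it was -0.06 (SE 0.122, interval -0.31 to 0.19), and the difference between these effects, 0.21 (SE 0.172, interval -0.15 to 0.56), was not called, with 0% of genes called in the test of the difference at 24 h and 0% at 6 h. At 6 h, AHR had 53.0, 58.0 and 40.2 CPM with PCA and 58.0, 49.5 and 53.3 in Ctrl, and the groups overlapped (log2 fold change -0.09, SE 0.210). ARNT had 40.1, 42.6 and 41.1 CPM with PCA at 24 h and 43.0, 43.3 and 43.6 in Ctrl. It differed by 0.04 (SE 0.117) at 6 h and -0.06 (SE 0.108) at 24 h between PCA and Ctrl, and by 0.00 (SE 0.118) and 0.03 (SE 0.108) between DHA + PCA and DHA. A protein-coding gene on the same strand and an antisense lncRNA, neither with a symbol, overlap AHR in the annotation, so its count has the same limit as those of AHRR and TIPARP.

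**Figure D2:**
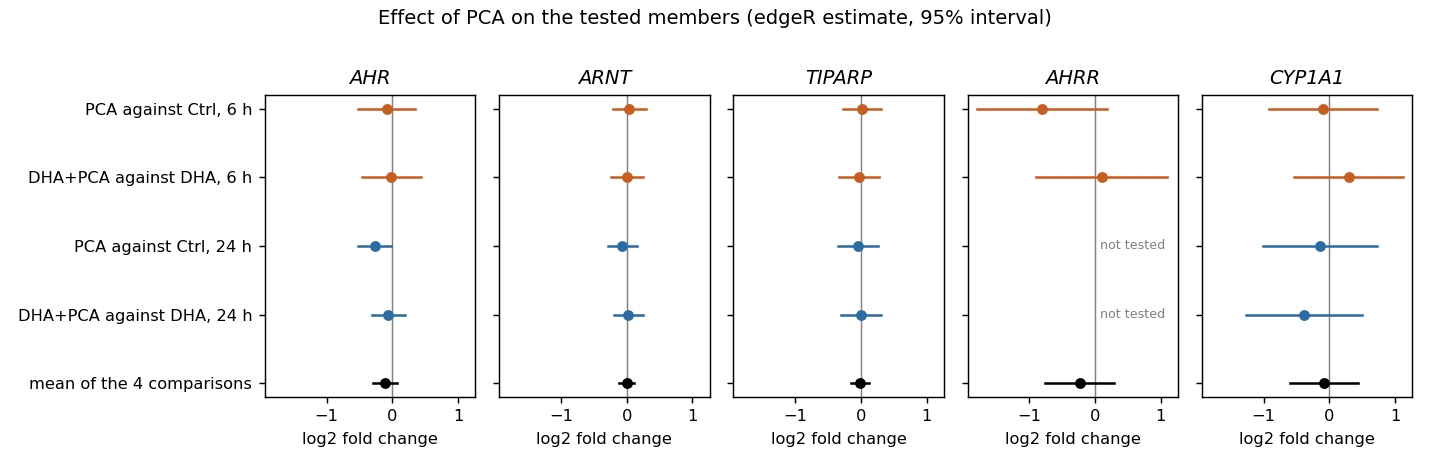
Log2 fold change with PCA (x axis) for the 5 members that could be tested, in each of the 4 comparisons with and without DHA and as their mean, with 95% intervals of edgeR (bars). All intervals but that of AHR for PCA against Ctrl at 24 h include 0, and those of CYP1A1 and AHRR are the widest. AHRR was not tested at 24 h.

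The mean effect of PCA over both DHA states was called for 0 of 5 members and 0% of genes at 6 h (118 genes by unadjusted p), and for 0 of 4 members and 0% of genes at 24 h (532 by unadjusted p). The mean over both times also gave 0 of 5 members and 0% of 12046 genes (258 by unadjusted p). Single members were compared as well by exact permutation (two-sided) of the mean log2 CPM over the 24 samples of Ctrl, PCA, DHA and DHA + PCA, with labels exchanged within each time and DHA state (160000 arrangements). The difference was -0.18 for AHRR (exact permutation p = 0.366) and -0.11 for AHR (p = 0.162). It was -0.08 for CYP1A1 (exact permutation p = 0.693), -0.01 for TIPARP (p = 0.872) and 0.00 for ARNT (p = 0.923). These p-values are not adjusted, and labels were exchanged without regard to replicate number. For CYP1A1 the arrangements thus include its difference between replicate numbers at 6 h, so its p-value does not show that PCA had no effect. The log2 CPM of CYP1B1 is set largely by the prior count of 2 and by depth, and its difference is not read here. The library numbers in the labels fall into a lower and a higher run, called here the earlier and the later series. No label gives a date or a batch. In the treatments compared here, the later series holds the samples of replicate 3 and no others. CYP1A1 differed by -0.28 with PCA in the earlier one (8 against 8 samples) and by 0.31 in the later one (4 against 4), so the sign was not shared, whereas AHR was lower in both, by -0.08 and -0.17.

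More genes were called under DHA than under PCA, but none of the members was among them. For DHA against Ctrl, 0 of 5 members were called at 6 h beside 0.0168% of all genes, and 0 of 4 at 24 h beside 0.193%. DHA + PRO against Ctrl gave 0 of 5 members beside 0.0168% of genes at 6 h and 0 of 4 beside 0.395% at 24 h. DHA + PCA against Ctrl gave 0 of 5 beside 0.0168% and 0 of 4 beside 0.286%. The mean effect of DHA over its 3 settings (alone, with PRO, with PCA) was called in 0.202% of genes at 6 h and in 1.23% at 24 h, and in 0 members at either time. PRO against Ctrl gave 0% of genes at both times (196 and 716 by unadjusted p), the mean effect of PRO 0% at 6 h (167 by unadjusted p) and 0.00841% at 24 h, and no member was called in any of these. The change of the DHA effect between the times was called in 0% of genes (368 by unadjusted p). With shares this low, the absence of a call among 4 or 5 members says little about them, and the values are given instead.

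AHR at 24 h had the smallest p-value of the members for the mean effect of DHA. Beside the 47.3, 53.2 and 45.4 CPM of Ctrl, it had 44.6, 42.9 and 37.9 with DHA, 38.3, 37.7 and 43.5 with DHA + PRO and 36.1, 46.8 and 37.4 with DHA + PCA. The DHA and DHA + PRO samples lay below all Ctrl samples, and 1 of the 3 DHA + PCA samples lay among them. With PRO alone AHR had 59.3, 51.8 and 55.1 CPM, which overlapped the range of Ctrl from above. The log2 fold changes against Ctrl were -0.22 (SE 0.120) with DHA, -0.30 (SE 0.119) with DHA + PRO, -0.28 (SE 0.122) with DHA + PCA and 0.18 (SE 0.118) with PRO. Against the group with the same second compound, DHA gave a wider range of values. AHR differed by -0.48 (SE 0.117, interval -0.72 to -0.24, adjusted p = 0.113 by edgeR) between DHA + PRO and PRO, and by -0.01 (SE 0.123, interval -0.26 to 0.24) between DHA + PCA and PCA, whose means were 40.1 and 40.2 CPM. The mean effect of DHA on AHR, in which the setting with PRO was the largest part, was -0.24 (SE 0.069, interval -0.38 to -0.09), with an unadjusted p of 0.00237 and an adjusted p of 0.115 by edgeR. Without DHA + PCA replicate 2 it was -0.28 and was called (adjusted p = 0.0417 by edgeR), and it was also called at -0.24 with the replicate number as a block (adjusted p = 0.0451 by edgeR). At 6 h this mean was -0.09 (SE 0.122), and the change from 6 h to 24 h was -0.15 (SE 0.145, interval -0.44 to 0.14).

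No member passed the test with DHA or PRO, except AHR in the alternative fits given above. For CYP1A1 the mean effect of DHA was 0.03 (SE 0.228) at 6 h and -0.13 (SE 0.240) at 24 h, and that of PRO was 0.16 (SE 0.280) and -0.23 (SE 0.285). TIPARP differed by -0.16 (SE 0.083) with DHA at 6 h, where the 3 DHA + PRO samples (151, 111 and 70 reads, at most 17.7 CPM) lay below the 3 Ctrl samples (at least 18.8 CPM). At 24 h its mean difference with DHA was -0.09 (SE 0.084). ARNT differed by 0.00 (SE 0.068) and -0.03 (SE 0.062) with DHA and by 0.08 (SE 0.083) and 0.02 (SE 0.075) with PRO. AHRR differed by -0.03 (SE 0.278) with DHA and 0.20 (SE 0.326) with PRO at 6 h. At 24 h, AHRR had 9, 10 and 9 reads with DHA (1.47, 1.17 and 1.30 CPM), above the 3, 5 and 8 reads of Ctrl (at most 1.08 CPM). With DHA + PRO it had 5, 9 and 3 reads (0.835, 0.215 and 0.428 CPM), which overlapped Ctrl. In a fit without a filter on low counts these differences were 0.72 (SE 0.646) and -1.04 (SE 0.718), and neither was called. TIPARP differed by -0.15 (SE 0.102) and 0.00 (SE 0.101) with PRO and AHR by -0.10 (SE 0.150) and 0.05 (SE 0.084), at 6 h and 24 h.

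CYP1A1 was far higher at 6 h than at 24 h in every treatment, including the vehicle control. In Ctrl it fell from 24.1, 50.3 and 62.1 CPM (261, 547 and 360 reads) at 6 h to 4.20, 2.85 and 1.62 CPM (25, 19 and 12 reads) at 24 h. With PRO it fell from 24.9, 52.2 and 63.4 CPM to 1.96, 1.60 and 4.69 CPM, and with DHA + PRO from 247, 383 and 270 reads (28.1, 61.1 and 57.9 CPM) to 15, 75 and 21 reads, where the 75 reads of the deepest library equal 1.80 CPM. The lowest sample at 6 h (24.1 CPM) was above the highest at 24 h (4.69 CPM), and all 18 pairs of the same treatment and replicate number were lower at 24 h.

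In Ctrl alone the log2 fold change of CYP1A1 from 6 h to 24 h was -3.99 (SE 0.457, interval -4.92 to -3.06, adjusted p = 4.15e-08 by edgeR), a 15.9-fold lower level. Of all 12046 genes tested, 26% were called between the times in Ctrl, and among the 5 members tested CYP1A1 was the only one. Over all 6 treatments the log2 fold change was -4.13 (SE 0.187, interval -4.51 to -3.75, adjusted p = 1.99e-19 by edgeR), or 17.5-fold lower. By treatment the level was 13.5-fold lower with DHA, 16.3-fold with PCA, 17.1-fold with PRO, 21.4-fold with DHA + PCA and 22.1-fold with DHA + PRO. CYP1A1 ranked first of the 12046 genes by the size of the fall, in Ctrl as well as over all treatments. The next genes over all treatments were SLC6A12 (log2 fold change -2.68), P2RY6 (-2.43), SERPINA3 (-2.26) and SLCO1B3 (-2.23), named by their rank after their values were seen. It also ranked first with DESeq2's test and size factors and after leaving out each of the 36 samples in turn (-4.23 to -4.07).

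**Figure D3:**
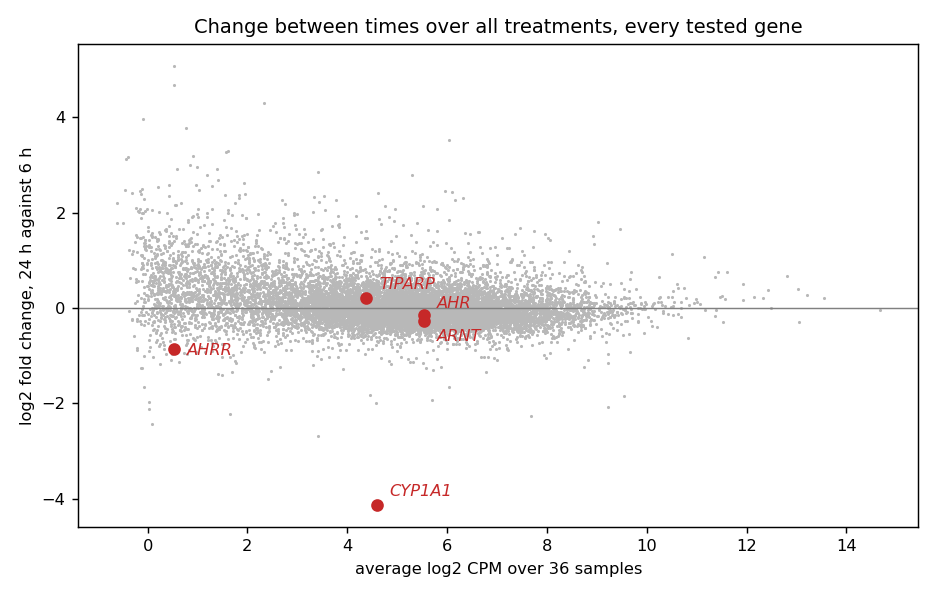
Log2 fold change between 24 h and 6 h over all treatments (y axis) against average log2 CPM (x axis) for the 12046 genes tested (grey), with the 5 tested members in red. CYP1A1, at -4.13, lies below every other gene, while AHR, ARNT and TIPARP lie within the bulk of the genes.

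The level of CYP1A1 at 6 h also differed by replicate number. Replicate 1 lay between 24.1 and 29.5 CPM in the 6 treatments, replicate 2 between 46.8 and 61.1 and replicate 3 between 48.0 and 63.4. Thus all 6 samples of replicate 1 were below all 12 others, while replicates 2 and 3 overlapped. At 24 h the ranges overlapped, with 1.59 to 4.20 CPM in replicate 1, 1.60 to 2.85 in replicate 2 and 1.62 to 4.69 in replicate 3. The difference between the times was -3.20 on the log2 scale in replicate 1, -4.53 in replicate 2 and -4.18 in replicate 3. In the earlier series of libraries it was -3.80 and in the later one -4.20. None of the other members split by number in this way at 6 h: for instance, AHR had 36.6 to 67.4 CPM in replicate 1 and 36.5 to 58.0 in replicate 2, and TIPARP 16.6 to 21.9 and 17.2 to 20.9.

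**Figure D4:**
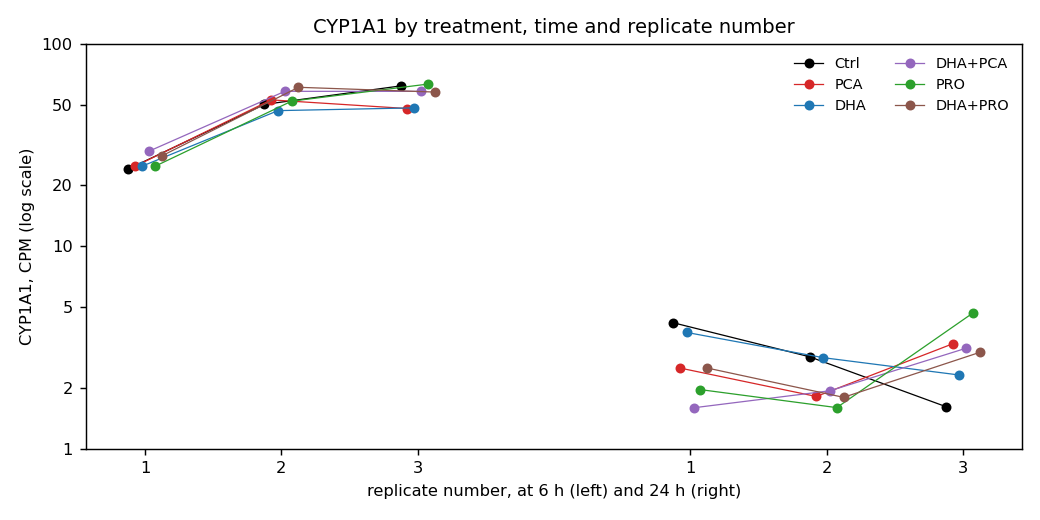
CYP1A1 level in CPM (log scale) by replicate number at 6 h (left) and 24 h (right), with a line for each of the 6 treatments. At 6 h replicate 1 lies at 24.1 to 29.5 CPM in every treatment and replicates 2 and 3 at 46.8 to 63.4, and at 24 h all samples lie at or below 4.69.

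The other members changed by far less between the times. Over all treatments, 4 of the 5 members tested were called, beside 61% of all genes, so a call alone does not set them apart. ARNT was lower at 24 h by a log2 fold change of -0.26 (SE 0.044, adjusted p = 3.69e-06 by edgeR) and lower in 17 of 18 pairs. AHRR changed by -0.86 (SE 0.208, adjusted p = 0.000564 by edgeR), with 13 of 18 pairs lower and few reads. By treatment its change ran from -2.24 (SE 0.546) with DHA + PRO, where alone it was called, through -1.19 (SE 0.506) in Ctrl to -0.18 (SE 0.540) with PCA and -0.11 (SE 0.482) with DHA. TIPARP changed in the opposite direction, by 0.22 (SE 0.057, adjusted p = 0.00100 by edgeR), and was higher in 16 of 18 pairs. AHR, at -0.14 (SE 0.072, adjusted p = 0.0915 by edgeR), was not called, although it was in 5 of the 36 fits that left out a sample, and its difference was -0.23 in the earlier library series and 0.06 in the later one. The same differences were -0.26 and -0.28 for ARNT, -0.53 and -0.89 for AHRR and 0.23 and 0.19 for TIPARP. The sum of the leukocyte markers rose with time as well, as given above, and its part in these differences was not tested. LYZ made up most of that sum (median 918 RPKM, against 111 for CD74), so a rise of CD74 by itself is not shown. Hours in serum-free medium, age of the culture and time of harvest cannot be told apart from the time with the compounds.

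A list of 25 further genes of the pathway was read from the same fits, of which 18 were tested. ARNT2, CYP1A2, UGT1A6, SERPINB2, TDO2, IDO1 and IL4I1 were too low. CYP1A2, the liver-specific relative of CYP1A1, had 0 to 3 reads at 6 h and 0 to 5 at 24 h. Under PCA, 0 of 18 passed in any comparison, and the median log2 fold change of the list for the mean effect of PCA was 0.03 at 6 h and 0.00 at 24 h, against 0.00 over all genes at both. The smallest p values for the mean effect of PCA at 24 h were those of CYP2S1, another cytochrome P450 (0.38, SE 0.188, interval -0.01 to 0.77), the chaperone PTGES3 (-0.07, SE 0.053) and the bilirubin-conjugating enzyme UGT1A1 (-0.52, SE 0.419).

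NQO1, a quinone reductase that is a target of AHR and of the oxidative stress factor NFE2L2, was the only 1 of the 18 called under a treatment. At 24 h it had 644, 611 and 607 CPM with DHA, 737, 675 and 685 with DHA + PRO and 626, 649 and 645 with DHA + PCA, against 460, 498 and 473 in Ctrl. All samples with DHA were above all samples of Ctrl, and the 521, 449 and 501 CPM with PCA overlapped Ctrl. The log2 fold change was 0.55 (SE 0.082, adjusted p = 0.000803 by edgeR) with DHA + PRO, 0.42 (SE 0.082, adjusted p = 0.0140) with DHA + PCA and 0.38 (SE 0.082, adjusted p = 0.0513, not called) with DHA. The last was called with the replicate number as a block (adjusted p = 0.00448 by edgeR), without a filter and by the DESeq2 Wald test. The mean effect of DHA was 0.38 (SE 0.047, adjusted p = 1.51e-05 by edgeR). Without any one of Ctrl replicates 1 and 3 and the 3 DHA + PCA samples, the call with DHA + PCA was lost (highest adjusted p = 0.111 by edgeR). CYP1A1, which rests on 9 to 75 reads per sample at 24 h, was not called in these comparisons. At 24 h, NFE2L2 averaged 263 CPM in Ctrl, 265 with PCA, 286 with PRO and 284 to 296 in the groups given DHA. The mean effect of DHA on NFE2L2 did not pass. Whether AHR or NFE2L2 had a part in the rise of NQO1 was not tested.

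Between the times, 11 of the 18 list members were called over all treatments, 10 of them lower at 24 h, beside the 61% of all genes, of which 3623 were higher and 3731 lower. The chaperones HSP90AA1 (-0.63), HSP90AB1 (-0.28) and PTGES3 (-0.32) were lower. Among further targets, NQO1 (-0.46), the aldehyde dehydrogenase ALDH3A1 (-0.48) and UGT1A1 (-0.65) were lower and the transcriptional repressor HES1 was higher (0.53). The coactivators CREBBP (-0.24) and EP300 (-0.27), the ARNT partner EPAS1 (-0.12) and KYNU (-0.17), an enzyme of tryptophan breakdown, were lower as well. The calls of EPAS1 and UGT1A1 were lost in 7 and 8 of the 36 fits that left out a sample. The median of the list was -0.18, against -0.01 over all genes. In Ctrl alone 4 of the 18 were called, all lower, namely HSP90AA1 (-0.65), HSP90AB1 (-0.28), PTGES3 (-0.35) and NQO1 (-0.68), beside 26% of all genes, of which 1700 were higher and 1432 lower. With the replicate number as a block, 7 of the 18 were called in Ctrl and 13 over all treatments. UGT1A1 shares exons with other UGT1A genes, so that its reads cannot be assigned with certainty.

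**Figure D5:**
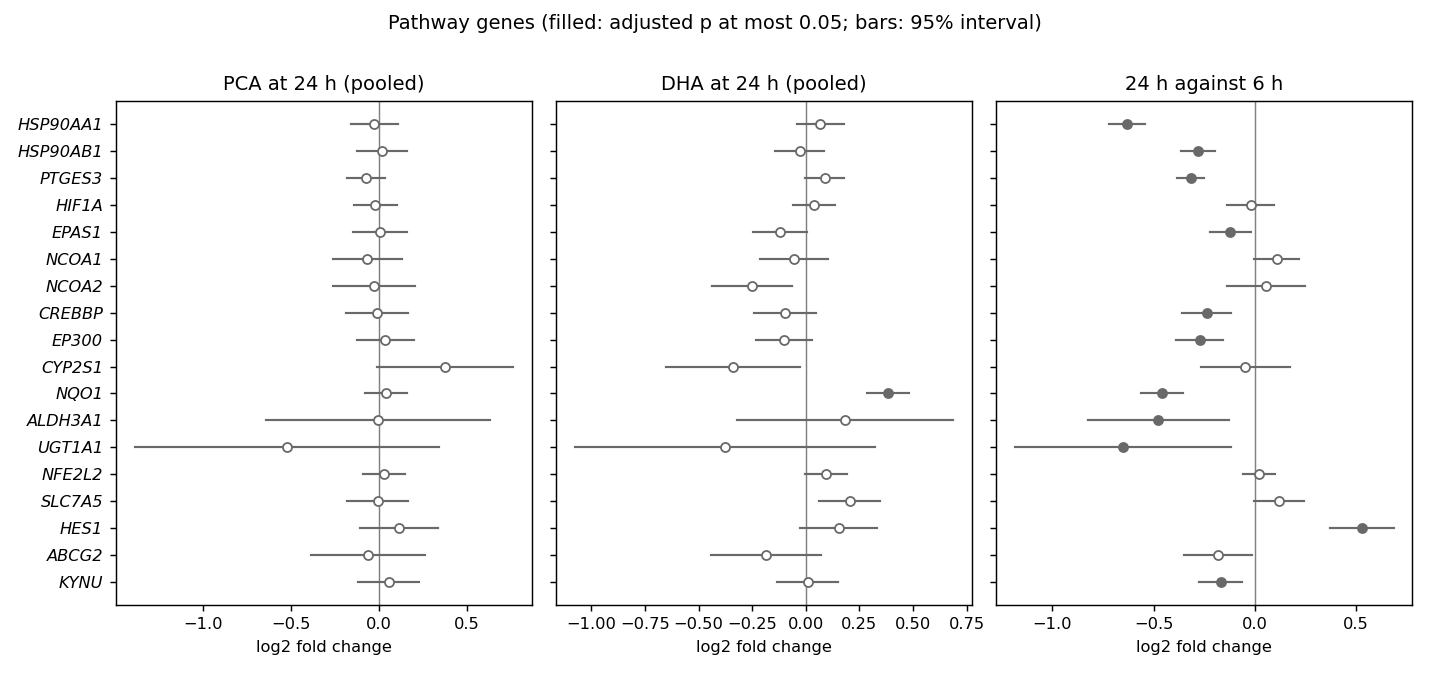
Log2 fold change (x axis) of the 18 tested pathway genes for the mean effect of PCA at 24 h, the mean effect of DHA at 24 h and 24 h against 6 h over all treatments, with 95% intervals of edgeR (bars) and filled points for genes called. No gene is filled for PCA, NQO1 alone for DHA, and 11 genes for time.

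Genes whose pattern was most like that of a member were found by Pearson's r of the 12 group means of log2 CPM, centred within each time, over 12041 genes. For AHR these were SLC38A2 (r = 0.975) and LMAN1 (r = 0.944), and for ARNT they were CEP162 (r = 0.924) and ZNF317 (r = 0.905). Those of CYP1A1 were SLC6A4 (r = 0.919) and ATXN7L3B (r = 0.901), those of AHRR ZDHHC11 (r = 0.866) and SMPDL3B (r = 0.862), and those of TIPARP ENTPD4 (r = 0.940) and MTR (r = 0.932). The 12 means share libraries between genes, and the best of so many genes is high by selection, so these values only describe the data.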

How the data were processed

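RNA-seq counts of 36 HepG2 samples were used. The authors prepared libraries with the TruSeq RNA kit v2, aligned reads to hg19 (GRCh37) with STAR and processed them with iRNA-seq. The authors deposited unscaled counts of reads for each RefSeq gene. The authors' table also holds positions and a counted length per gene (other, used for RPKM). Groups and replicate numbers came from the labels. No molecular identifiers are described, so counts are of reads, and limits given for 0 counts cover counting error only.

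These counts were fitted with edgeR 4.0.16 in R 4.3.3 (filterByExpr, TMM, quasi-likelihood F test without robust estimation) in fits of the 18 samples of each time and, for time, of all 36. The Benjamini-Hochberg adjustment covered all genes of a fit. CPM and RPKM use TMM-scaled library sizes, and log2 CPM has a prior count of 2. P-values rest on the spread between samples within groups, estimated over all groups of a fit with support from other genes, not on 1 group alone. Without the replicate block, this spread includes differences between replicate numbers. The mean effects of PCA, DHA and PRO are averages of contrasts with equal weight. No 2 libraries were duplicates: chi-square per degree of freedom was at least 1.89 in 630 pairs. Alternatives were DESeq2 1.42.0 (size factors or Wald test), no filter, a replicate block, smaller fits of the groups concerned, and each sample left out in turn. Upstream sequence was read from GRCh37, and overlaps from GENCODE.

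The members, the pathway list and the markers were chosen with earlier results of these data known. All members are named, and of the list those called in any comparison outside the alternative runs and the 3 with the smallest p for the mean effect of PCA at 24 h. The study's analysis of variance was not repeated. A gene of the pathway list as first drawn up is not reported here, for a reason unrelated to its values.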

Additional observations from a re-analysis of the deposited data

How the results depend on the processing

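Of 25 comparisons, 22 kept the same number of members called under each alternative run. For the mean effect of DHA at 24 h the number went from 0 to 1 member, AHR, with the replicate block (log2 fold change -0.24, adjusted p = 0.0451 by edgeR) and without DHA + PCA 24 h replicate 2 (-0.28, adjusted p = 0.0417 by edgeR), a range of 0 to 1 over the samples left out. In Ctrl, 24 h against 6 h went from 1 to 2 members without Ctrl 6 h replicate 1 (range 1 to 2), the second being AHRR (-1.48, adjusted p = 0.0472 by edgeR). In 24 h against 6 h over all treatments, AHR (-0.17 to -0.08 with samples left out, lowest adjusted p = 0.0368) was called without DHA 6 h replicate 1, PRO 6 h replicate 3, PCA 6 h replicate 3 or DHA + PRO 6 h replicate 2 or 3, so that 5 of 5 members were then called. The change between the times kept its direction and its call for CYP1A1, ARNT, AHRR and TIPARP under every alternative run.

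Same-numbered samples deviated together on average (mean r of 0.256 at 6 h and 0.153 at 24 h), but the lowest of the 45 pairs at each time were at -0.116 and -0.182. For DHA + PCA and DHA all 3 pairs were above 0.1 (lowest 0.119 and 0.155), and for PCA and Ctrl the lowest were 0.0082 and 0.071. Samples of other numbers had a mean r of -0.125 at 6 h and -0.076 at 24 h. The column names repeat the same run of numbers for each replicate number in every treatment. The authors' methods describe 3 independent cell cultures. Neither they nor a label say that a number marks the same culture across treatments, so the block was kept as an alternative. If a number does so, the fits without the block leave that pairing out. Their intervals then also hold differences between cultures that all treatments share. For members, the block value stands beside each call it changes. With the replicate block, CYP1A1 changed by 0.28 (SE 0.109) in DHA + PCA against DHA at 6 h, where the SE without the block was 0.395. No call of a member changed other than that of AHR. The block raised the genes called for the mean effect of DHA at 6 h from 24 to 64 and at 24 h from 146 to 367, and for DHA, DHA + PRO and DHA + PCA against Ctrl at 6 h from 2, 2 and 2 to 18, 13 and 11 and at 24 h from 23, 47 and 34 to 77, 135 and 130. For the mean effect of PRO at 24 h it gave 20 instead of 1, and for the change of the DHA effect with time 20 instead of 0. In that order, the Wald test of DESeq2 gave 45, 222, 10, 11, 7, 48, 74, 63, 4 and 6 genes, and 1 for PRO against Ctrl at 24 h in place of 0. Without a filter, 5 (DHA) and 7 (DHA + PRO) genes were called at 6 h, and 49 (DHA), 79 (DHA + PRO), 74 (DHA + PCA) and 10 (PRO) at 24 h, 2 for the mean effect of PRO at 24 h and 2 for the change of the DHA effect. Fits of only the groups compared gave 0 for DHA and DHA + PRO at 6 h, 79 for DHA + PRO and 61 for DHA + PCA at 24 h, and 0 for the mean effect of PRO at 24 h. The comparisons of PCA stayed at 0 genes under each of these.

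Small differences changed sign, none of them called. DESeq2's Wald test gave 0.00030 for TIPARP with PCA over both DHA states at 6 h and -0.00062 for TIPARP in DHA + PCA against DHA at 24 h, and the replicate block gave 0.0014 for AHRR with DHA at 6 h. With samples left out, PCA against Ctrl at 6 h ran from -0.20 to 0.055 for AHR, -0.036 to 0.11 for ARNT, -0.42 to 0.17 for CYP1A1 and -0.039 to 0.073 for TIPARP. DHA + PCA against DHA at 6 h ran from -0.17 to 0.14 for AHR, -0.062 to 0.057 for ARNT, -0.12 to 0.59 for AHRR and -0.13 to 0.065 for TIPARP. Over both DHA states at 6 h, PCA ran from -0.13 to 0.027 for AHR, -0.017 to 0.058 for ARNT, -0.062 to 0.23 for CYP1A1 and -0.056 to 0.042 for TIPARP. At 24 h, PCA against Ctrl ran from -0.45 to 0.21 for CYP1A1 and -0.11 to 0.012 for TIPARP. DHA + PCA against DHA at 24 h ran from -0.18 to 0.0074 for AHR, -0.021 to 0.13 for ARNT and -0.11 to 0.17 for TIPARP, and the mean of both from -0.042 to 0.034 for ARNT and -0.075 to 0.063 for TIPARP. For DHA, the mean effect at 6 h ran from -0.034 to 0.029 for ARNT, -0.19 to 0.17 for AHRR and -0.078 to 0.13 for CYP1A1, and that at 24 h from -0.25 to 0.066 for CYP1A1. For PRO at 24 h it ran from -0.0069 to 0.081 for ARNT and -0.063 to 0.091 for TIPARP. The difference in the exact permutation test of PCA ran from -0.011 to 0.016 for ARNT, -0.28 to 0.068 for CYP1A1, -0.49 to 0.11 for CYP1B1 and -0.030 to 0.019 for TIPARP when 1 replicate number was left out. The cause of these shifts was not tested.

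NQO1 with DHA + PCA at 24 h was called with Ctrl replicate 2 left out and lost its call without each of the other 5 samples (0.40 to 0.46, adjusted p = 0.0412 to 0.111 by edgeR). With DHA alone at 24 h it was called by the Wald test, without a filter and with the block. Between the times, EPAS1 and UGT1A1 lost their call in 7 and 8 of the 36 fits that left out a sample (adjusted p at most 0.0703 and 0.0667 by edgeR). Both lost it without Ctrl 6 h replicate 3, DHA 6 h replicate 2 or 3, PCA 6 h replicate 3 or DHA + PCA 24 h replicate 1, EPAS1 also without Ctrl or DHA 24 h replicate 1, and UGT1A1 also without PRO 6 h replicate 2, DHA + PRO 24 h replicate 2 or DHA + PCA 24 h replicate 3. The values of AHRR, CYP1B1 and, at 24 h, CYP1A1 rest on few reads.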
